A study of Homo sapiens with 24 samples.

Results

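The genes described here are 10 human genes that make, phosphorylate or use up the nicotinamide cofactors NAD and NADPH, out of 58302 genes in the expression table. They are NAMPT, NMRK1, NAPRT, NADSYN1, NMNAT1, NMNAT3, NADK, NADK2, NNT and NNMT, picked by name as NAD salvage, NAD kinase and transhydrogenase genes, with NAMPT already known to be higher in the GPD1 cells of these data. Every comparison of GPD1 with vector cells is therefore a description without a test. The comparisons with metformin, which played no part in the choice, are tested.

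Polyadenylated RNA was sequenced from A549, an established human lung cancer line, in 4 groups of 3 libraries. Cells had received either a lentivirus for GPD1 overexpression or a blank vector lentivirus, and each kind was kept without metformin or in medium with 10 mM metformin. GPD1, a glycerol-3-phosphate dehydrogenase of the cytosol, oxidises NADH to NAD, and metformin is a biguanide drug against diabetes known to inhibit respiratory complex I. All 4 groups therefore carried a lentivirus, and the labels do not say how the vector drives GPD1, whether a line is a single clone, how long metformin lasted, or if separate cultures stand behind the 3 libraries of each group. The p-values measure only how far these libraries spread, and that spread may be technical. A further 12 samples of the series, of 786-O kidney cancer cells, were not analysed here.

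Levels are in FPKM, fragments per kilobase of transcript scaled to the library total. They can be compared between genes only as far as the gene length used matches the transcripts present. Low values imply 13.3 to 18.0 M reads per library. GPD1 itself averaged 0.0770 FPKM in untreated vector cells, 0.0538 in vector cells with metformin, 15.8 in untreated GPD1 cells and 13.5 in GPD1 cells with metformin, in the direction of the labels. The keratins KRT7, KRT8 and KRT18 and the A549 genes AKR1B10, CPS1 and ALDH1A1 were high, EPCAM was at most 1.57 FPKM, and of the kidney genes PAX8 was at most 0.162, PAX2 2.48, CDH6 1.96 and CA9 3.52 FPKM. The markers CD3E and CDH5, which mark T cells and endothelium, were listed at 0 in all 12 libraries. Genes of the mitochondrial genome made up 30.2% to 33.2% of the summed FPKM in untreated libraries and 10.3% to 14.9% with metformin.

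Cells rebuild most of their NAD from nicotinamide. NAMPT joins nicotinamide to a ribose phosphate, NMRK1 phosphorylates nicotinamide riboside, and both routes give nicotinamide mononucleotide, which the NMNAT enzymes turn into NAD. NAPRT starts a parallel route from nicotinic acid that ends in NADSYN1, the NAD kinases add a phosphate to give NADP, NNT makes NADPH in the mitochondrial inner membrane at the cost of NADH, and NNMT removes nicotinamide by methylating it with S-adenosylmethionine.

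NAMPT, the usual rate-limiting enzyme of salvage, and NNMT, which takes away its substrate, had the highest FPKM of the members. They changed in opposite directions with metformin in vector cells. In untreated vector cells NNMT (31.1 ± 2.79 FPKM, SD, n = 3) stood above NAMPT (17.52 ± 0.923), followed by NADK, NADSYN1, NADK2, NMNAT1, NAPRT, NMRK1, NMNAT3 and NNT. No neighbours in that order overlapped between libraries. The order rests on the gene lengths behind FPKM. NAMPT has 9049 exon bases and NNMT 2919, and in untreated vector replicate 1 they held an estimated 2720 and 1571 reads. In the other 3 groups NAMPT was first and NNMT second, followed by NADK and NADSYN1. Below them, the libraries of NADK2 and NMRK1 overlapped in both GPD1 groups, those of NMRK1 and NMNAT1 in untreated GPD1 cells, and those of NMNAT1 and NMNAT3 in GPD1 cells with metformin. In vector cells with metformin, NAPRT overlapped NMNAT1 above it and NMNAT3 below it. Of the 10 members, 6 averaged 1 FPKM or more across all 12 libraries and entered the fit over 12607 genes. NMRK1 lay just inside that limit at a mean of 1.01 and NMNAT1 just outside it at 0.904, and NMRK1 passed only through its level in GPD1 cells.

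**Figure D1:**
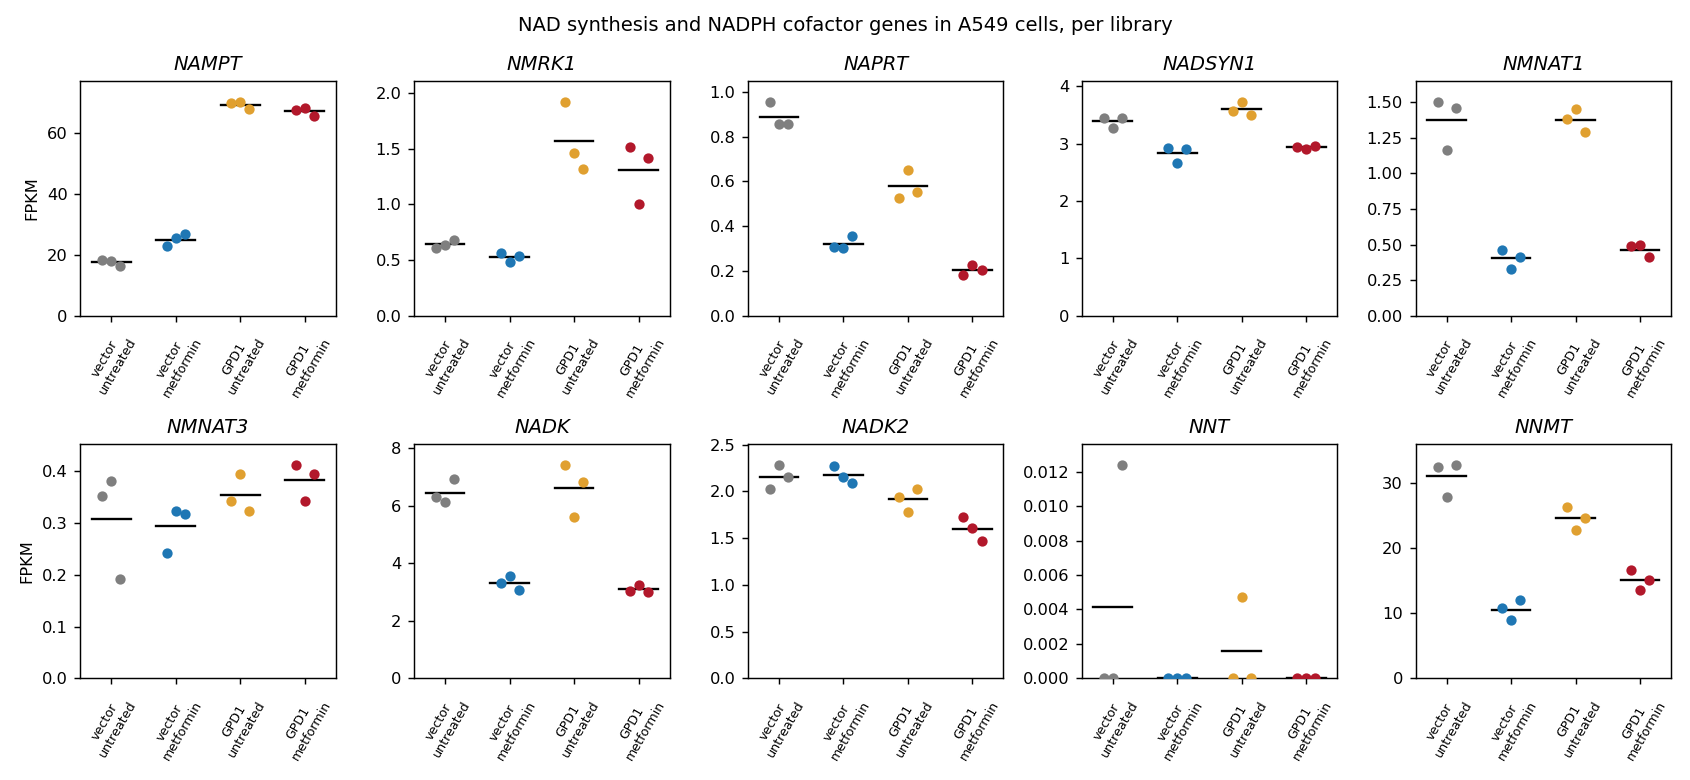
FPKM of the 10 members (vertical axes, linear, each from 0) in the 4 groups (horizontal axis). Points are single libraries and bars the mean of 3. NAMPT sat between 65.8 and 70.2 in the 6 GPD1 libraries and between 16.5 and 26.9 in the 6 vector libraries, and NMNAT1, NAPRT, NADK and NNMT were lower with metformin in both kinds of cells.

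Metformin changed most genes of these cells, which sets the background for the members. In limma (adjusted p under 0.05, Benjamini-Hochberg), 74.6% of tested genes were called in vector cells, 31.3% higher and 43.3% lower, and 1 member was higher and 3 were lower of 6. In GPD1 cells 74.2% of genes were called, 26.1% higher and 48% lower, and 0 members were higher and 4 lower of 6. Treated and untreated libraries did not overlap for 5 of 6 members in vector cells, against 76.6% of genes, and for 4 of 6 in GPD1 cells, against 77.1%. The members' shares lie near these. RNA came from whole cultures, so less of a transcript in each cell and fewer cells with it cannot be told apart. The median of all tested genes moved by -0.10 (log2) with metformin in vector cells and by -0.20 in GPD1 cells, while the 6 members had medians of -0.15 and -0.19. The members called lower were NADK, NADSYN1 and NNMT in vector cells, and these with NADK2 in GPD1 cells. With median-ratio scaling factors, higher genes made up 49.2% of the calls in GPD1 cells instead of 35.2%, and 50.5% in vector cells.

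NAMPT (ENSG00000105835, minus strand, chr7:106248285-106286326, GRCh38) was higher with metformin in vector cells. The untreated vector libraries held 18.2, 17.9 and 16.5 FPKM, and those with metformin 22.8, 25.4 and 26.9. The lowest treated library lay above the highest untreated one. Metformin raised NAMPT 1.43-fold, by 0.49 on the log2(FPKM + 1) scale (SE 0.06, limma adjusted p = 1.706e-05), and by 0.59 relative to the median gene. In untreated GPD1 cells the libraries held 69.8, 70.2 and 68.0 FPKM, and with metformin 67.7, 68.2 and 65.8. These groups overlapped. Their difference was -0.04 (SE 0.06, 95% interval -0.17 to 0.08, limma adjusted p = 0.515), which was 0.15 above the median gene, and its direction rested on the scaling, since median-ratio factors gave 0.21 (limma adjusted p = 0.017). The metformin change in GPD1 cells minus that in vector cells was -0.53 (SE 0.08), given without a test because NAMPT's level in GPD1 cells was the reason for looking at it. This difference was -0.43 with median-ratio and -0.39 with upper-quartile scaling.

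Against vector cells, GPD1 cells held 3.96-fold more NAMPT without metformin (69.3 ± 1.13 against 17.52 ± 0.923 FPKM, SD, n = 3 each) and 2.69-fold more with it (67.2 ± 1.26 against 25.01 ± 2.08). The highest vector library, at 26.9 FPKM, was well under the lowest GPD1 library, at 65.8. These comparisons share libraries with those of metformin.

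NAMPT has a processed copy, NAMPTP1, at chr10:36521721-36524234 (GRCh38), with 2514 exon bases, and the table listed it at levels close to the gene's own. NAMPTP1 averaged 15.2 ± 0.689 FPKM in untreated vector cells, 30.3 ± 1.57 in vector cells with metformin, 65.4 ± 1.90 in untreated GPD1 cells and 74.1 ± 2.97 in GPD1 cells with metformin (SD, n = 3 each). How reads that match both were assigned is not given in the sources used here, so the level of NAMPT itself is uncertain. Estimated from FPKM and exon length, NAMPTP1 held 19.4% of the reads of both in untreated vector cells and 25.2% with metformin, and 20.8% and 23.4% in GPD1 cells. With both genes' reads added up, the metformin change was 1.54-fold in vector cells and 1.00-fold in GPD1 cells, and GPD1 cells held 4.03-fold more than vector cells without metformin and 2.63-fold more with it. Of the other listed copies, NAMPTP2 was at 0 in all 12 libraries and NAMPTP3 at most at 0.289 FPKM. An antisense gene, AC007032.1, overlaps exons of NAMPT and was at 0.650 to 5.34 FPKM, and no strand is stated for the library kit, so its reads cannot be told apart from those of NAMPT there.

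**Figure D2:**
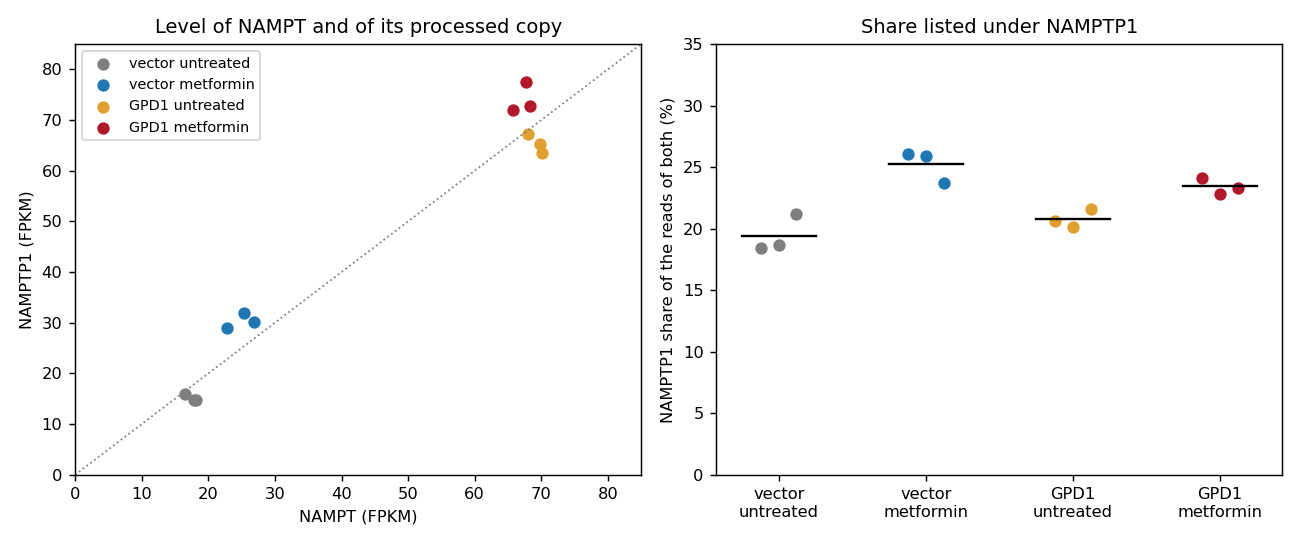
Left, FPKM of NAMPT (horizontal) and of its processed copy NAMPTP1 (vertical) in the 12 libraries, with the dotted line marking equal levels. Right, estimated percentage of the reads of both genes listed under NAMPTP1, with points for libraries and bars for means of 3; the mean was 19.4% and 25.2% in vector cells and 20.8% and 23.4% in GPD1 cells, without and with metformin.

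Among the protein-coding genes whose log2(FPKM + 1) followed NAMPT most closely over the 12 libraries, out of 4883 with a mean of at least 5 FPKM, were STRA6, a receptor for retinol-binding protein (Pearson r = 0.984), SRA1, a steroid receptor RNA activator (0.983), HTR1D, a serotonin receptor (0.979), and COL4A6, a basement membrane collagen (0.968). These are descriptions over libraries that share the 4 groups. COL4A6 averaged 6.65 FPKM in untreated vector cells, 10.4 with metformin, and 15.7 and 16.4 in GPD1 cells without and with it.

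In the RefSeq table (GRCh38.p14), the 250 bases before the start of NAMPT hold 1 match to the antioxidant response element core, TGACNNNGC, on the minus strand of the promoter, 85 bases before the start. It lies within an exon of another annotated transcript, so only the match with 10 bases on each side is shown, at chr7:106285050-106285078, read along the minus strand with the match in capitals.
NAMPT: cgtcacccgcGCCGCGTCAcggctcccgg
Such a match stood in 10.91% of 35116 promoters of this length and, among 13 starts of 7 matched members, also in NADSYN1. The C/EBP-ATF motif, TGATGNAA, occurred in 3.14% of promoters and in 0 of the 13 starts.

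The other entry into mononucleotide, NMRK1 (chr9:75060573-75088217), was weakly expressed and higher in GPD1 cells. The untreated vector libraries held 0.610, 0.635 and 0.681 FPKM, and the untreated GPD1 libraries 1.92, 1.46 and 1.32. With metformin the vector libraries held 0.564, 0.484 and 0.539 FPKM, and the GPD1 libraries 1.51, 1.01 and 1.42. Every GPD1 library was above every vector library, and the ratio of means was 2.44 without metformin and 2.48 with it. The metformin change did not pass the test: it was -0.10 (SE 0.10, limma adjusted p = 0.375) in vector cells, where the libraries did not overlap, and -0.15 (SE 0.10, limma adjusted p = 0.204) in GPD1 cells. NMRK1 entered the fit only through its GPD1 libraries, whose wider spread enters the SE in vector cells. With only the vector groups in the fit the SE was 0.07 (limma adjusted p = 0.214), so the test in vector cells decides little. NAMPT was 27.4 ± 2.90 times NMRK1 in untreated vector libraries and 45.3 ± 7.91 times in untreated GPD1 libraries.

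Nicotinamide mononucleotide is turned into NAD by NMNAT1, the nuclear adenylyltransferase, and NMNAT3, the mitochondrial one. NMNAT1 (chr1:9943428-9985501) was 1.5002, 1.16 and 1.46 FPKM in untreated vector cells and 0.463, 0.328 and 0.416 with metformin. In GPD1 cells it was 1.38, 1.45 and 1.29 FPKM without metformin and 0.487, 0.498 and 0.410 with it. In each kind of cell all treated libraries lay under all untreated ones. The mean was 3.42-fold lower with metformin in vector cells and 2.96-fold lower in GPD1 cells, a larger ratio than for the other 8 members that were above 0 in all libraries. NMNAT1 missed the limit of 1 FPKM, so its test comes from a fit without that limit, in which 40.4% of 35437 genes were called in vector cells and 37% in GPD1 cells. There NMNAT1 fell by 0.76 (SE 0.07, limma adjusted p = 1.351e-05) and by 0.70 (SE 0.07, limma adjusted p = 2.841e-05), and the difference between these changes was 0.06 (95% interval -0.17 to 0.29, limma adjusted p = 0.752).

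The ratio of NAMPT to NMNAT1 within a library differed widely between the groups. NAMPT was 12.9 ± 2.16 times NMNAT1 in untreated vector cells and 63.7 ± 14.1 times with metformin. In GPD1 cells the ratio was 50.5 ± 2.17 without metformin and 145.5 ± 12.96 with it (SD, n = 3 libraries each). Neither kind of cell had overlapping libraries between untreated and treated. NMNAT3 (chr3:139560180-139678017) was between 0.191 and 0.412 FPKM in all libraries, and its metformin changes without the limit were -0.01 (limma adjusted p = 0.946) and 0.03 (limma adjusted p = 0.793). The 5 listed copies NMNAT1P1 to NMNAT1P5 were at 0 in every library.

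NAPRT, which takes nicotinic acid into the pathway, was low and lower still with metformin (chr8:143574785-143578649). Vector libraries held 0.953, 0.855 and 0.854 FPKM untreated and 0.308, 0.301 and 0.355 with metformin. GPD1 libraries held 0.525, 0.652 and 0.554 FPKM untreated and 0.181, 0.226 and 0.204 with metformin. None of these 4 groups overlapped another. Means were 2.76-fold and 2.84-fold lower with metformin in vector and GPD1 cells, and in the fit without the limit NAPRT fell by 0.51 (SE 0.05, limma adjusted p = 2.696e-05) and by 0.39 (SE 0.05, limma adjusted p = 2.256e-04). GPD1 cells held 0.650 times the NAPRT of vector cells without metformin and 0.633 times with it. The gene overlaps AC067930.6, over 292 exon bases, and AC067930.5, over 855, on the other strand, at 1.94 to 8.76 and 0.0492 to 0.489 FPKM, so reads over these bases cannot be told apart.

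NADSYN1 (chr11:71453109-71524107), the glutamine-dependent synthetase that finishes the nicotinic acid route, moved little. It was 3.44, 3.28 and 3.44 FPKM in untreated vector cells and 2.93, 2.66 and 2.90 with metformin. In GPD1 cells it was 3.56, 3.72 and 3.50 FPKM untreated and 2.94, 2.90 and 2.96 with metformin. Treated libraries lay under untreated ones in both. The change was -0.20 (SE 0.04, limma adjusted p = 0.0022) and -0.22 (SE 0.04, limma adjusted p = 9.607e-04), but only -0.09 and -0.03 relative to the median gene, and both calls were lost with median-ratio scaling (-0.08, limma adjusted p = 0.13, and -0.03, limma adjusted p = 0.551). With upper-quartile scaling the change in GPD1 cells was -0.12 (limma adjusted p = 0.0309).

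The cytosolic NAD kinase NADK and the mitochondrial NAD kinase NADK2 both make NADP, and in vector cells NADK fell with metformin while NADK2 did not pass the test. The difference between the genes was not tested. NADK (chr1:1751232-1780457) was 6.31, 6.14 and 6.92 FPKM in untreated vector cells and 3.31, 3.55 and 3.07 with metformin. In GPD1 cells it was 7.41, 5.62 and 6.84 FPKM untreated and 3.05, 3.25 and 2.99 with metformin. All 6 treated libraries lay under all 6 untreated ones. With metformin NADK fell 1.95-fold in vector cells, a change of -0.79 (SE 0.08, limma adjusted p = 7.25e-06), and 2.14-fold in GPD1 cells, a change of -0.89 (SE 0.08, limma adjusted p = 3.074e-06). The difference between these changes did not pass the test, at -0.10 (95% interval -0.36 to 0.17, limma adjusted p = 0.531). In GPD1 cells NADK was 1.03 times its level in vector cells without metformin and 0.935 times with it, and the libraries overlapped.

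NADK2 (chr5:36192592-36242279) was 2.02, 2.28 and 2.16 FPKM in untreated vector cells and 2.27, 2.16 and 2.09 with metformin, which overlap. In GPD1 cells it was 1.94, 1.78 and 2.03 FPKM untreated and 1.73, 1.61 and 1.48 with metformin, which do not. In vector cells the metformin change was 0.01 (95% interval -0.12 to 0.14, limma adjusted p = 0.903), a direction that turned with totals without mitochondrial genes, and in GPD1 cells it was -0.17 (SE 0.06, limma adjusted p = 0.0249). The call in GPD1 cells was lost with median-ratio scaling (limma adjusted p = 0.94), upper-quartile scaling (0.223), a fit on those groups only (0.0524), and without untreated GPD1 replicate 1 (0.0619) or 3 (0.0889) or treated GPD1 replicate 2 (0.0532) or 3 (0.0928). The ratio of NADK to NADK2 within a library was 3.01 ± 0.278 in untreated vector cells and 1.53 ± 0.106 with metformin, and 3.45 ± 0.338 and 1.94 ± 0.149 in GPD1 cells. Against vector cells, GPD1 cells held 0.891 times as much NADK2 without metformin and 0.738 times with it.

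**Figure D3:**
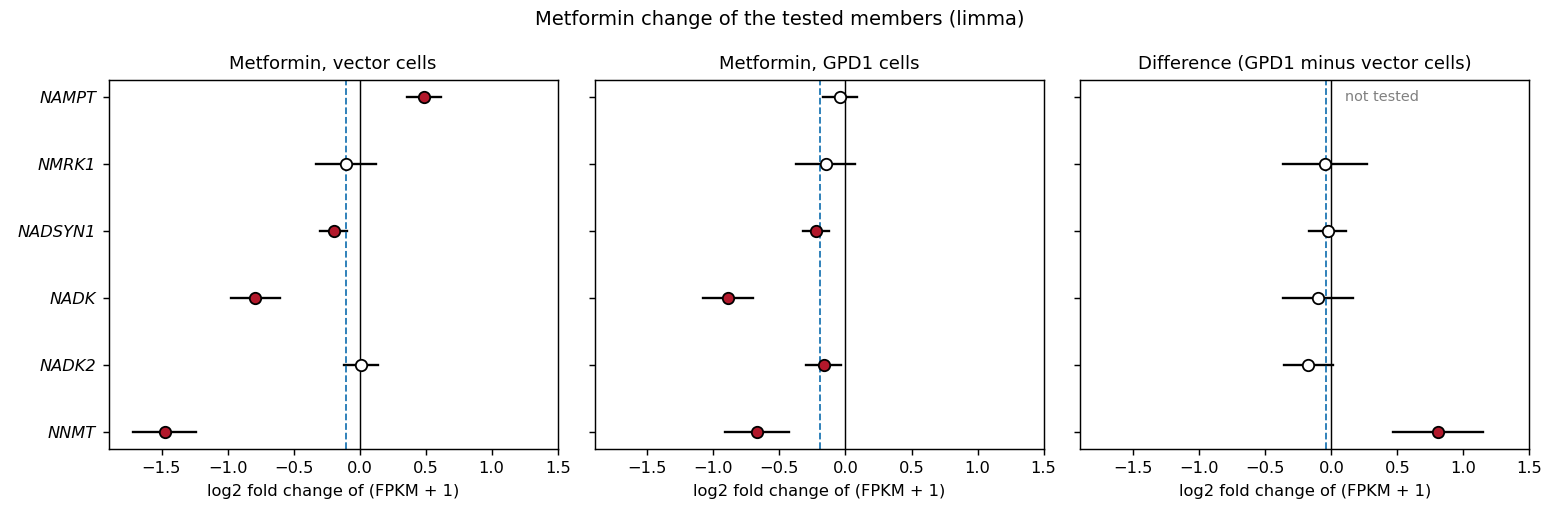
Metformin change of the 6 tested members in vector cells (left) and GPD1 cells (middle), and the change in GPD1 cells minus that in vector cells (right), on the log2(FPKM + 1) scale with 95% intervals from limma. Filled points passed an adjusted p of 0.05, and the dashed line is the median of all tested genes; NNMT fell by 1.48 in vector cells and by 0.67 in GPD1 cells, and its difference of 0.81 was the only one past the threshold.

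Both kinases had a promoter stretch with the E-box CACGTG, a palindrome read the same on both strands, and both stretches are shown. A link of the E-box to the metformin changes was not tested, nor was which start these cells use. The sequences are RefSeq's (GRCh38.p14), on the minus strand, with the E-box in capitals, at chr1:1778817-1779066 for 1 of 3 listed starts of NADK and chr5:36242280-36242529 for 1 of 3 of NADK2.
NADK: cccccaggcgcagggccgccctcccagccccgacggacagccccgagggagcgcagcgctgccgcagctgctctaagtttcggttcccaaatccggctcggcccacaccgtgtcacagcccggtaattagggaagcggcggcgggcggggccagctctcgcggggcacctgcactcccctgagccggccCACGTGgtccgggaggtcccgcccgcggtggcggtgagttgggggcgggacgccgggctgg
NADK2: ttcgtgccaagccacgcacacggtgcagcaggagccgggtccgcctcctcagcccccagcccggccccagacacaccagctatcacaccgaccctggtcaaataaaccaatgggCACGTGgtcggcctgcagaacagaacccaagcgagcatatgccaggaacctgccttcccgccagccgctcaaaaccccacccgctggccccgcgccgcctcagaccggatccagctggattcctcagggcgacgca
The E-box lies 61 bases before the start in NADK and 136 bases before it in NADK2, and the stretches hold 75.2% and 66% G and C against a median of 58% over all promoters. An E-box stood in 6.34% of promoters of this length and at 3 of the 13 member starts, the other being in NNT.

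NNT, the proton-driven transhydrogenase of the mitochondrial inner membrane, was hardly detected. It was listed at 0 in 10 of 12 libraries, at 0.0124 FPKM in untreated vector replicate 3 and at 0.00473 in untreated GPD1 replicate 2, at most 1.36 estimated reads, so comparing groups carries no information (chr5:43602692-43707405). A value of 0 in this table need not mean that no read was found, since the mitochondrial transcript MT-CYB was also listed at 0 in 2 libraries. The antisense gene NNT-AS1 was at 0 throughout. Of the protein-coding neighbours on one side, PAIP1, a translation factor, was at 10.6 to 13.7 FPKM, C5orf34 at 0.749 to 2.28 and TMEM267 at 1.67 to 2.89. On the other side FGF10 was at 0 and MRPS30, a mitochondrial ribosomal protein, at 5.84 to 15.3.

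**Figure D4:**
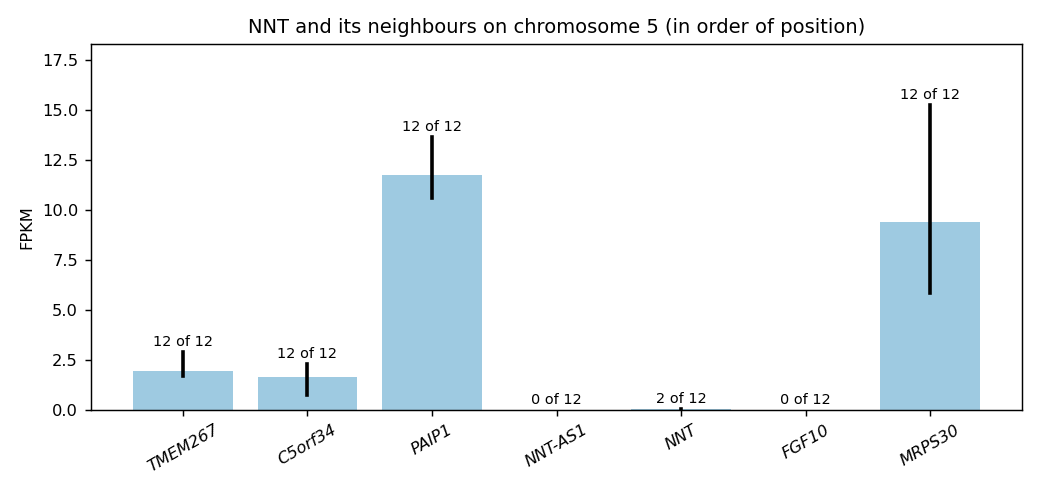
Mean FPKM (bars, from 0) of NNT, its antisense gene and protein-coding neighbours, in order along chromosome 5, with lines from the lowest to the highest of 12 libraries and the number of libraries above 0 written over each. NNT was above 0 in 2 of 12 libraries, and PAIP1, C5orf34, TMEM267 and MRPS30 in all 12.

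NNMT, which spends nicotinamide and S-adenosylmethionine, had the largest metformin change among the 6 tested members in vector cells, and that change was smaller in GPD1 cells (chr11:114257787-114313285). Untreated vector libraries held 32.6, 27.9 and 32.8 FPKM, and those with metformin 10.9, 8.90 and 12.001. Untreated GPD1 libraries held 26.3, 22.8 and 24.6 FPKM, and those with metformin 16.6, 13.6 and 15.1. No group overlapped another, and the order from high to low was untreated vector, untreated GPD1, GPD1 with metformin, vector with metformin. With metformin NNMT fell 2.94-fold in vector cells, a change of -1.48 (SE 0.11, limma adjusted p = 3.491e-07), and 1.63-fold in GPD1 cells, a change of -0.67 (SE 0.11, limma adjusted p = 2e-04) that was -0.43 with median-ratio scaling (limma adjusted p = 0.00388). The difference between these changes was 0.81 (SE 0.15, limma adjusted p = 0.001532), so the fall was smaller in GPD1 cells. Of the 5 members whose difference was tested, NNMT was the 1 called, against 45.9% of all genes, 19.1% in its direction. NMRK1 was among the 5 only through its level in GPD1 cells, so nothing is read from its own test. For NADK2 the difference was -0.17 (95% interval -0.36 to 0.01, limma adjusted p = 0.112). For NADSYN1 it was -0.03 (95% interval -0.17 to 0.11, limma adjusted p = 0.762) and for NMRK1 -0.05 (95% interval -0.37 to 0.27, limma adjusted p = 0.816), both with directions that turned with median-ratio and upper-quartile scaling. GPD1 cells held 0.791 times the NNMT of vector cells without metformin and 1.43 times with it.

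NAMPT and NNMT act on the same substrate, and their ratio within a library rose with metformin and was higher in GPD1 cells. It was 0.568 ± 0.0708 in untreated vector cells and 2.40 ± 0.403 with metformin. In GPD1 cells it was 2.83 ± 0.217 untreated and 4.48 ± 0.488 with metformin. The libraries did not overlap between untreated and treated cells of either kind. Between GPD1 and vector cells, the libraries did not overlap for 4 of the 6 members above the limit without metformin (NAMPT, NADSYN1, NMRK1 and NNMT), against 41.4% of genes. With metformin they did not overlap for 4 (NAMPT, NADK2, NMRK1 and NNMT), against 64.8% of genes. Nothing is read from these counts, since the contrast served to choose the genes.

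The mitochondrial share of the libraries moved with metformin, beside every metformin value above. With FPKM rescaled to totals without the genes of the mitochondrial genome, 4 of 6 members were still called in vector cells and 4 of 6 in GPD1 cells, and they were the same members.

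Other genes of NAD and NADPH handling were counted in 6 lists. Their values and calls are given for the main fit only, not under the other scalings. In the list of NAD-consuming enzymes (sirtuins, poly-ADP-ribose polymerases and relatives), 19 of 25 genes were tested. With metformin 3 were higher and 11 lower in vector cells and 2 higher and 14 lower in GPD1 cells. PARG, MACROD1 and OARD1 in this list remove ADP-ribose and do not themselves consume NAD. PARG and OARD1 were among those called lower in both kinds of cells, and MACROD1 among those called higher in GPD1 cells. Of all genes 31.3% were higher and 43.3% lower in vector cells, and 26.1% and 48% in GPD1 cells. The list's median change was -0.43 in vector cells and -0.40 in GPD1 cells, against -0.10 and -0.20 over all genes. PARP1, the main DNA damage-sensing polymerase, was 31.1 ± 1.19 FPKM untreated and 11.5 ± 0.566 with metformin in vector cells (2.71-fold lower, limma adjusted p = 1.36e-09), and 27.8 ± 0.470 and 14.5 ± 0.675 in GPD1 cells (1.91-fold lower, limma adjusted p = 3.89e-08). PARP4, the vault-associated member, was 3.31-fold and 2.46-fold lower. SIRT1, a nuclear NAD-dependent deacetylase, was 4.84 ± 0.171 FPKM untreated and 10.0 ± 0.648 with metformin in vector cells, 2.07-fold higher (limma adjusted p = 2.17e-06), and fell by 0.65 on the log2 scale in GPD1 cells (limma adjusted p = 3.5e-05). The difference between these changes of SIRT1 was -1.565 (SE 0.12, limma adjusted p = 3.61e-06).

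Of the NADPH-producing dehydrogenases 9 of 12 were tested. With metformin 2 were higher and 5 lower in vector cells and 3 higher and 4 lower in GPD1 cells, near the shares of all genes (31.3% and 43.3%, then 26.1% and 48%). Their median change was -0.34 and -0.06, against -0.10 and -0.20 over all genes. MTHFD2, a mitochondrial folate dehydrogenase, is in the list although it works chiefly with NAD. It rose 3.27-fold in vector cells and 3.24-fold in GPD1 cells, from 23.5 ± 1.09 and 25.2 ± 0.879 FPKM (limma adjusted p = 1.28e-08 and 1.74e-08). PGD, of the pentose phosphate pathway, rose 1.39-fold and 1.35-fold. H6PD, its counterpart in the endoplasmic reticulum, fell 3.11-fold and 1.88-fold, and the cytosolic folate enzyme MTHFD1 fell 1.84-fold and 1.27-fold. The difference between the kinds of cells passed the test for 6 of the 9, all with a more positive change in GPD1 cells, and for 0 with a more negative one, against 19.1% and 26.8% of all genes. The others, IDH1 at 0.29, PGD at -0.04 and MTHFD2 at -0.01, did not pass. In H6PD that difference was 0.57 (SE 0.13, limma adjusted p = 0.00502) and in MTHFD1 0.50 (SE 0.07, limma adjusted p = 0.000127).

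**Figure D5:**
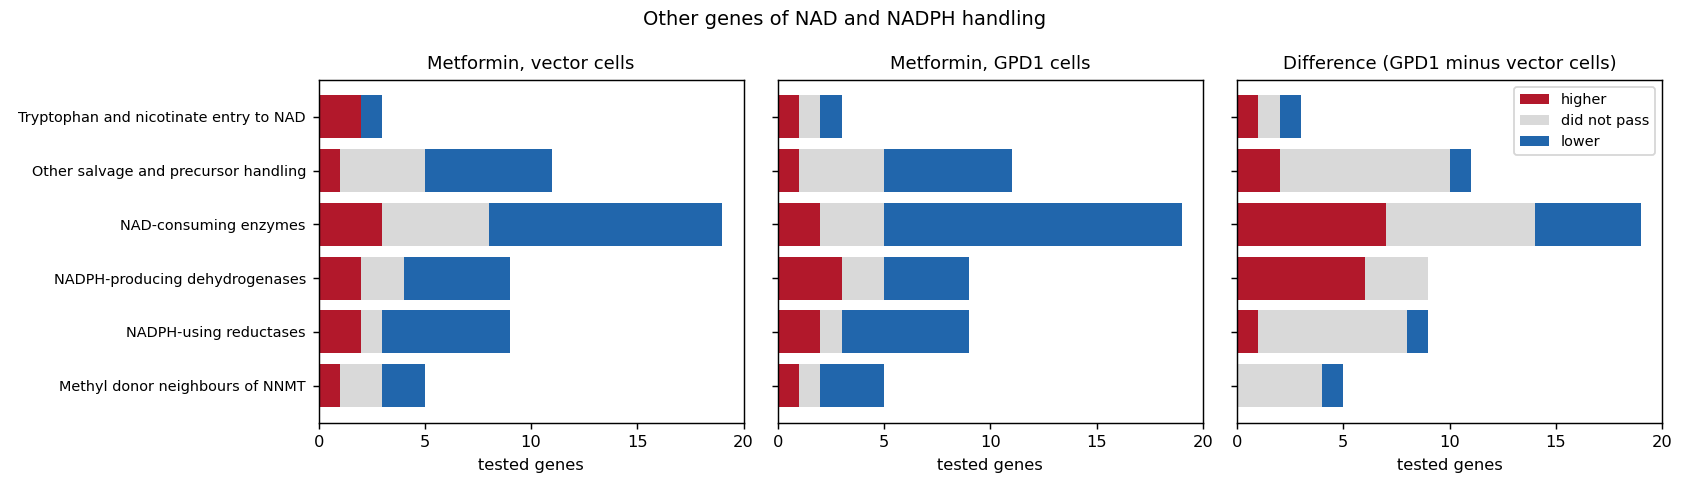
Number of tested genes of 6 lists (horizontal axis) called higher (red), called lower (blue) or not called (grey) by limma at an adjusted p of 0.05, for metformin in vector cells, metformin in GPD1 cells, and the change in GPD1 cells minus that in vector cells. In the NAD-consuming list, which includes PARG, MACROD1 and OARD1, 11 and 14 of 19 were lower with metformin. In the NADPH-producing list 6 of 9 had a more positive change in GPD1 cells.

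All 9 genes listed as NADPH-using reductases were tested, although SRXN1 and CYB5R3 among them do not take NADPH as their main electron donor. Both of these were among those called lower. With metformin 2 of the 9 were higher and 6 lower in each kind of cell. Of all genes 74.6% and 74.2% were called, 43.3% and 48% lower. Their median change was -0.43 in vector cells and -0.35 in GPD1 cells. BLVRB, which reduces biliverdin, rose 2.22-fold and 1.88-fold, and the quinone reductase NQO1 1.24-fold and 1.54-fold. Sulfiredoxin SRXN1 fell 2.04-fold and 2.48-fold and thioredoxin reductase TXNRD1 2.28-fold and 3.40-fold, the latter with a wide spread (74.1 ± 22.6 FPKM in untreated vector cells). Around the salvage route, 11 of 17 genes were tested. In each kind of cell 1 was higher and 6 lower, a share of calls below that of all genes (74.6% and 74.2%). The list's median changes were -0.27 and -0.18, against -0.10 and -0.20 over all genes. Riboflavin kinase RFK, a gene of flavin rather than NAD synthesis, rose 1.57-fold and 1.66-fold. The nucleoside carrier SLC29A1 fell 1.58-fold in vector cells and 1.15-fold in GPD1 cells. In GPD1 cells its change of -0.18 was near the median of -0.20 over all genes. NT5E, the surface nucleotidase CD73, fell 2.26-fold in vector cells, and NT5C2, a cytosolic one, fell 2.18-fold in GPD1 cells. Of the route from tryptophan, 3 of 9 genes were tested, 2 of them higher and 1 lower in vector cells and 1 each way in GPD1 cells, with medians of 0.36 and -0.03, too few to set beside those shares. Kynureninase KYNU fell 1.96-fold and 1.45-fold. Of the methyl donor genes beside NNMT, 5 of 7 were tested, with 1 higher and 2 lower in vector cells and 1 higher and 3 lower in GPD1 cells, with 74.6% and 74.2% of all genes called and list medians of -0.47 and -0.40. MAT2A, which makes S-adenosylmethionine, fell 1.47-fold and 1.33-fold. AHCY, which clears the S-adenosylhomocysteine left after methyl transfer, rose 1.16-fold and 1.33-fold.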

How the data were processed

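RNA from 12 A549 libraries was used, grouped by their labels. The authors deposited 1 table of 58302 genes as FPKM, normalised for gene length and library total; the file header gives no unit, so this rests on the values, and RPKM cannot be told apart. CASAVA 1.8, HISAT2 2.1.0, edgeR and GRCh38/hg38 are named per the submitters' processing notes, and which program and annotation made the values is not given in the sources used here. Depth and read numbers were estimated from low values and GENCODE release 29 exon lengths, and 64.5% to 69.3% of low genes gave whole reads within 0.02. Genes averaging 1 FPKM or more were tested in limma 3.58.1 under R 4.3.3, as log2(FPKM + 1), by a model of 4 group means with a trend. A check on simulated data changed few genes and left the scaling alone, so it does not cover the broad metformin change seen here. With the pseudocount of 1, changes of weak genes are understated. The members and lists were chosen with earlier results of these data known. All 10 members are described. Of each list, up to 2 genes per direction with the largest change, a mean of at least 5 FPKM and an adjusted p under 0.05 are named. Promoter sequences are RefSeq's, and 7 of 10 members matched (not NMRK1, NNMT and NAPRT). Alternatives were a pseudocount of 0.1, no limit on low values, 3 other scalings, fits on the groups compared, a replicate block and each library left out. Adding NAMPTP1 to NAMPT was chosen after seeing the data. Some genes that the naming rules reach are not reported here.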

Additional observations from a re-analysis of the deposited data

Results flagged for a closer look

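The change of NNMT with metformin differed between the 2 kinds of cells. It fell by 1.48 (log2) in vector cells and by 0.67 in GPD1 cells, a difference of 0.81 (SE 0.15, limma adjusted p = 0.001532) that was tested as an interaction. The direction rests on 3 libraries per group, none of which overlapped another group.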

How the results depend on the processing

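Over results and settings, 328 of 336 values without 1 library and 195 of 218 under other settings counted as the same. For a tested value this means the same direction and side of the threshold, whatever its size. For a value given without a test it means a shift smaller than the largest SD of the groups compared. The fall of NADK and NNMT in both kinds of cells, the rise of NAMPT in vector cells and the NNMT difference (0.70 to 0.94) kept their direction and call under all alternatives run. Small changes turned direction. NAMPT with metformin in GPD1 cells was 0.21 with median-ratio scaling, 0.090 with upper-quartile scaling and 0.0051 with NAMPTP1 added. NADK2 in vector cells was -0.057 with totals without mitochondrial genes and between -0.022 and 0.038 with 1 library left out, below 0 without vector replicate 1, untreated or treated. The difference between kinds of cells became 0.0071 for NADK, 0.078 for NADSYN1 and 0.032 for NMRK1 with upper-quartile scaling, and 0.0475 and 0.043 for NADSYN1 and NMRK1 with median-ratio scaling. For NMRK1 it lay between -0.116 and 0.052 with 1 library left out, above 0 without untreated GPD1 replicate 1 or treated GPD1 replicate 2. The excess of NAMPT in GPD1 cells with metformin was 1.40 (log2) and became 1.54 with upper-quartile scaling. The cause of these shifts was not tested. The calls of NADK2 and NADSYN1 that were lost stand beside their values.

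Libraries of the same replicate number did not deviate together (correlation -0.07 to 0.06 over 18 pairs, 0 over 0.1, own number best in 5), so the numbers are not taken to pair samples. With the replicate block, 4, 4 and 1 members were called with metformin in vector cells, in GPD1 cells and for the difference, as without it, and no call of a member was lost. The fit on the groups compared cannot be made for the difference, which needs all 4 groups. Depth limits the weakly expressed members: estimated reads per library were at most 1.36 for NNT, 8.15 to 48.5 for NAPRT, 27.2 to 116 for NMNAT1, 30.3 to 99.5 for NMRK1 and 32.9 to 89.1 for NMNAT3.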
